A study of Mus musculus with 12 samples.

Results

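Genes of iron handling were followed in mouse fibroblast populations that carry inducible N-VEGF or NLS-N-VEGF, with and without doxycycline (dox). The set holds 10 of the 54447 rows of the count table: Heph, Cp, Slc40a1, Tfrc, Steap3, Slc11a2, Fth1, Ftl1, Ireb2 and Aco1, picked by gene symbol. Heph was chosen for its fall in NLS-N-VEGF cells given dox, and the other 9 were added to ask whether transferrin receptor, ferritins, exporters and iron sensors moved with it. The fall of Heph is therefore described here and carries no test. All 10 genes passed the filter on low counts.

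VEGF, an angiogenic factor, has a longer form with an extended N-terminus, called N-VEGF once split off, and in NLS-N-VEGF that part is joined to a nuclear localization sequence. The labels name mouse embryonic fibroblasts. The methods describe NIH3T3, an embryo fibroblast line, transduced with lentivirus that carries the sequence under a dox-inducible promoter. The 4 groups were NLS-N-VEGF without dox, NLS-N-VEGF with dox, N-VEGF without dox and N-VEGF with dox, with 3 libraries each, and the labels give no time of exposure. Every group carried a construct, and no group without one was among these libraries, so an effect of dox itself cannot be told apart from that of the induced sequence. Below, libraries with dox are called induced and those without it uninduced. Each group holds libraries 1 and 2 with one numeric suffix in their titles, called suffix a, and a further library 2 with another, called suffix b. The labels do not say what the suffix stands for or whether libraries came from separate cultures, so p-values measure the spread between these libraries, which may be technical.

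The libraries held 13549331 to 18982127 counts. The row of the construct insert had 5 to 12 counts in the libraries without dox and 35 to 268 with dox. This checks the dox part of each label, and does not tell NLS-N-VEGF from N-VEGF. In libraries 1 and 2 of suffix a and library 2 of suffix b with dox, it had 48, 35 and 173 counts in NLS-N-VEGF cells. The same libraries of N-VEGF cells had 121, 149 and 268 counts, so the insert was lower in NLS-N-VEGF cells. All 10 fibroblast markers reached a mean of 1 count per 1000000 counts of a library (CPM), with a summed level of 11269 to 14246 CPM per library. The summed markers of erythroid cells reached at most 0.402 CPM and those of hepatocytes 0.251 CPM, in a range that starts at 0 for both. These are the cell types best known for bulk iron use and for secreting ceruloplasmin. Macrophage markers summed to 8.24 to 13.5 CPM, endothelial markers to 2.39 to 4.49 CPM and epithelial markers to 0.880 to 1.87 CPM. Only 2 of the 5 macrophage markers, Csf1r and Cd68, reached a mean of 1 CPM, and Ptprc, Adgre1 and Cd163 did not. Of the 4 endothelial markers only Cdh5 did, and of the 4 epithelial markers only Cdh1. Most of each sum came from these genes. Of the Csf1r exon bases 16.4% overlap an antisense gene. The ranges of these sums overlapped between the 4 groups, and the part of these markers in the results was not tested.

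Cells take up transferrin-bound iron through the transferrin receptor, reduce it in endosomes with a ferrireductase of the STEAP family and pass it to the cytosol through a divalent metal transporter. What is not used is stored in ferritin or leaves through ferroportin, after which a copper-containing ferroxidase, hephaestin or ceruloplasmin, oxidizes it for loading onto transferrin. The iron regulatory proteins bind a hairpin in target mRNAs, the iron-responsive element. Bound in a 3′ UTR it protects transferrin receptor mRNA from decay, and bound in a 5′ UTR it blocks translation of ferritin and ferroportin mRNA, which counts of mRNA do not read.

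A search of GENCODE UTR sequences of build GRCm38 found this hairpin in 4 of the 10 genes. The search asked, on the transcript strand, for the loop CAGTG followed by any base but G, an unpaired C before the 5′ arm, and 5 pairing bases on each side of the loop. Tfrc carries 4 copies in its 3′ UTR, and Fth1, Ftl1 and Slc40a1 carry 1 each in the 5′ UTR. They are shown as matches to the hairpin that the sensor proteins Ireb2 and Aco1 bind, and are not a full list of their targets. Each runs 5′ to 3′ with the 6 loop bases in capitals.
Tfrc 3′ UTR, chr16:32631219-32631247, + strand: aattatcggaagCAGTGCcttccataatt
Tfrc 3′ UTR, chr16:32631598-32631626, + strand: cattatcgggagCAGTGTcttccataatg
Tfrc 3′ UTR, chr16:32631663-32631691, + strand: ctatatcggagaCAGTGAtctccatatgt
Tfrc 3′ UTR, chr16:32631710-32631738, + strand: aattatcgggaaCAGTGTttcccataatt
Fth1 5′ UTR, chr19:9982732-9982760, + strand: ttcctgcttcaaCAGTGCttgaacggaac
Ftl1 5′ UTR, chr7:45459779-45459807, - strand: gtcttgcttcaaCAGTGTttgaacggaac
Slc40a1 5′ UTR, chr1:45925465-45925493, - strand: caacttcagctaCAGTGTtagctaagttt
Of 21901 protein-coding genes, 123 (0.562%) held such a match in a UTR, 23 in a 5′ UTR and 100 in a 3′ UTR. The absence of a match in Heph, Cp, Steap3, Slc11a2, Ireb2 and Aco1 says only that these letters were not in their annotated UTRs.

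Per exon length, ferritin heavy chain was the most abundant of the 10 mRNAs and ferroportin the least. The median over 12 libraries was 547 CPM per kb of exon for Fth1, 142 for Ftl1 and 41.5 for Tfrc. Steap3 had 19.9, Aco1 16.0, Ireb2 13.4, Slc11a2 8.82 and Cp 7.84 on the same scale. Heph had 2.58 and Slc40a1 0.303. The ranges over libraries overlapped between the neighbours Steap3 and Aco1 and between Slc11a2 and Cp, and the other neighbours in this order did not overlap. Of the copper oxidases of iron export, Cp was therefore the more abundant in these cells.

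**Figure D1:**
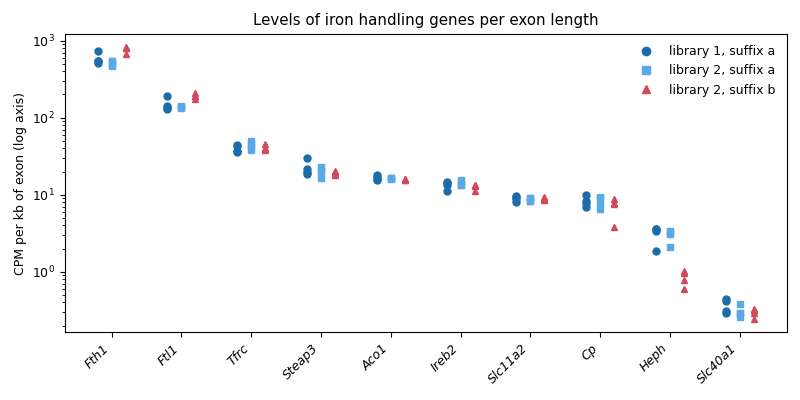
Level of each gene in CPM per kb of exon (log axis), with 1 point per library, coloured by library number and suffix, with genes ordered by their median over 12 libraries. Fth1 lies at a median of 547 and Slc40a1 at 0.303, and the Heph points of suffix b sit apart below those of suffix a.

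Heph (ENSMUSG00000031209, chromosome X, 96455359 to 96574485, GRCm38) encodes hephaestin, the membrane-bound ferroxidase. Among uninduced NLS-N-VEGF libraries, libraries 1 and 2 of suffix a and library 2 of suffix b had 27.9, 25.7 and 5.93 CPM, and the induced ones 14.4, 16.0 and 4.62 CPM. In this order, which is kept for every gene, the uninduced N-VEGF libraries had 25.8, 23.6 and 7.75 CPM and the induced ones 27.1, 24.1 and 7.30 CPM. Within suffix a, both libraries of NLS-N-VEGF cells with dox were below all 6 libraries of the other groups, and the library of suffix b was also the lowest of its 4. Between same-labelled libraries of NLS-N-VEGF cells Heph changed by -48.5%, -37.9% and -22.1% with dox. In N-VEGF cells the same pairs differed by 5.0%, 2.29% and -5.84%.

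The smallest of these falls rested on few reads. In suffix b the NLS-N-VEGF libraries held 83 counts of Heph without dox and 78 with dox, against 485 and 409 without dox and 268 and 217 with dox in suffix a. As a description, the log2 fold change with dox in NLS-N-VEGF cells was -0.78 with a standard error (SE) of 0.65, and -0.73 with an SE of 0.11 when the replicate label entered as a block. Without the block this value hung on single libraries of NLS-N-VEGF cells. It was -0.40 without the induced library of suffix b, -0.45 without uninduced library 1 of suffix a and -1.22 without the uninduced library of suffix b. In N-VEGF cells, which the choice of Heph did not rest on, it was 0.04 (SE 0.63, edgeR adjusted p 0.9999). The block gave 0.02 there (SE 0.11), with a 95% interval of the fold from 0.863 to 1.19.

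**Figure D2:**
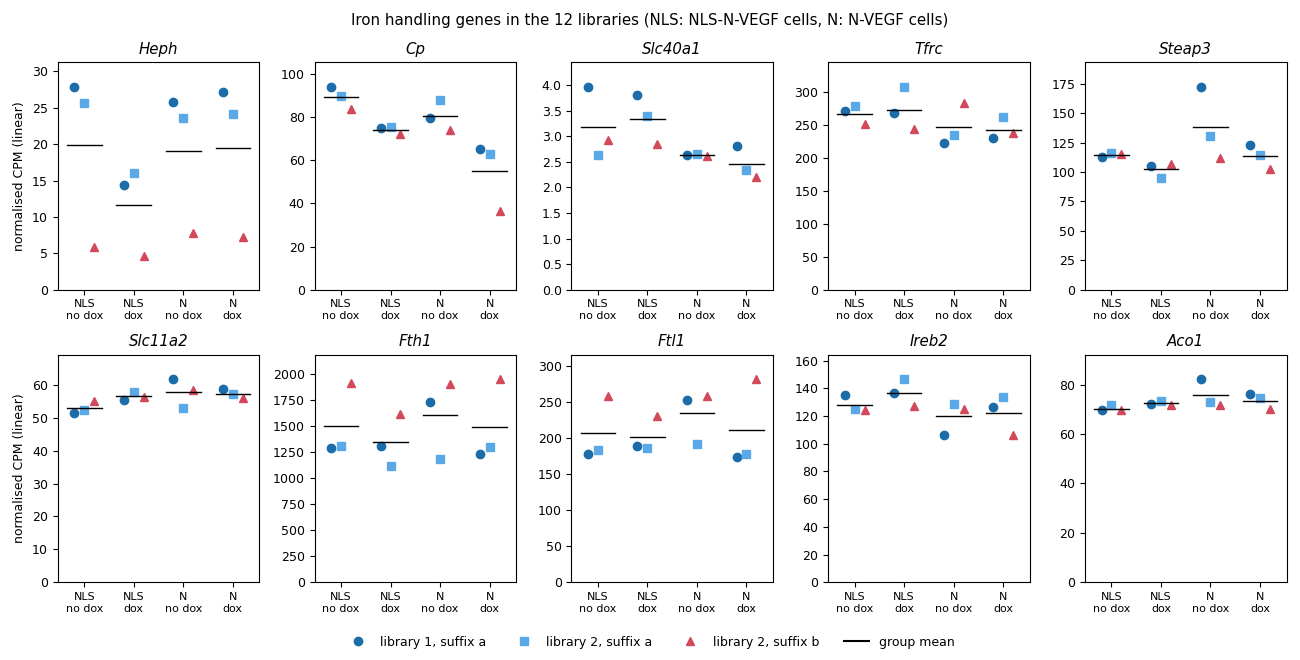
Normalised CPM of the 10 genes in the 12 libraries (linear axes from 0), by group, with marker and colour for library number and suffix and a black line for the group mean. The Heph points of suffix b lie between 4.62 and 7.75 CPM in all 4 groups, and Cp is lower with dox in both populations.

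With dox in NLS-N-VEGF cells, none of the other 9 iron genes passed the threshold of an edgeR adjusted p under 0.05. In that comparison 0.0220% of the 13608 genes tested were called, 3 genes, and 318 had an unadjusted p under 0.05, but 0 of the 9. DESeq2 also called 0 of the 9, and with the replicate block edgeR called 0 of them against 0.125% of all genes. With the block Cp had an unadjusted edgeR p under 0.05 (0.0357), as had 989 of all genes tested. The median log2 fold change of the 9 was 0.03, against 0.00 over all genes tested. In N-VEGF cells 0 of 10 were called by edgeR with or without the block, or by DESeq2 without it. Of all genes edgeR called 0.0367% without the block and 0.110% with it. With the block Cp and Steap3 had an unadjusted edgeR p under 0.05 in N-VEGF cells (0.000152 and 0.0158), as had 735 of all genes tested. Without the block 1 of the 10, Cp, had one there, and the median of the 10 was -0.07 against 0.00 over all genes.

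Cp (ENSMUSG00000003617, chromosome 3, 19957054 to 20009145) encodes ceruloplasmin, a ferroxidase related to hephaestin. The uninduced NLS-N-VEGF libraries had 94.0, 89.6 and 83.5 CPM of Cp, and the induced ones 74.7, 75.2 and 71.9 CPM. Uninduced N-VEGF libraries held 79.8, 87.8 and 74.0 CPM, and the induced ones 65.3, 63.0 and 36.4 CPM. The groups with and without dox did not overlap in either population, and Cp was lower with dox in 6 of 6 same-labelled pairs. The share of all genes tested that separate or fall in this way is not given, so both are a description only. The lowest value, 36.4 CPM, belonged to the N-VEGF library with dox of suffix b.

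For Cp the log2 fold change with dox was -0.27 in NLS-N-VEGF cells (SE 0.17, edgeR adjusted p 0.9998) and -0.55 in N-VEGF cells (SE 0.17, edgeR adjusted p 0.9999). With the replicate block the NLS-N-VEGF value was -0.26 (SE 0.12), with an unadjusted edgeR p of 0.0357 and an edgeR adjusted p of 0.646. The N-VEGF value with the block was -0.57 (SE 0.12), with an unadjusted edgeR p of 0.000152 and an edgeR adjusted p of 0.0827. The difference between the populations was 0.28 (SE 0.24, edgeR adjusted p 0.9999), so the effect was not shown to differ between them. Without the induced N-VEGF library of suffix b, the value in N-VEGF cells was -0.33 and the difference 0.06. Without induced N-VEGF library 1 of suffix a the difference was 0.43. A mean dox effect over both populations was added after these values were seen. It was -0.41 (SE 0.12, edgeR adjusted p 0.99995) for Cp without the block, where 8 genes (0.0588%) were called. With the replicate block Cp was called at -0.42 (SE 0.08, edgeR adjusted p 0.0252), a fold of 0.749 with a 95% interval from 0.664 to 0.845, beside 77 genes or 0.566% of those tested. The call was made with the 8 libraries of suffix a alone (-0.35, edgeR adjusted p 0.0121), and DESeq2 without the block did not make it (adjusted p 0.477). Of the 12 fits with the block and a library left out, 7 kept the call, at log2 fold changes from -0.48 to -0.32. The call was lost without N-VEGF library 2 of suffix a without dox (edgeR adjusted p 0.122). It was also lost without NLS-N-VEGF library 1 of suffix a without dox (edgeR adjusted p 0.0632), library 2 of suffix b without dox (0.102) or either library of suffix a with dox (0.109 and 0.126).

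**Figure D3:**
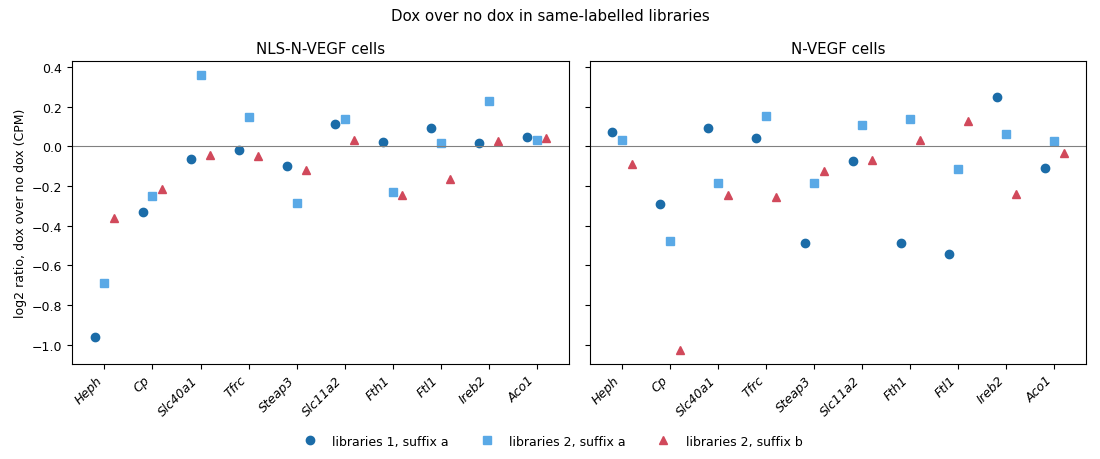
Log2 ratio of CPM with dox over CPM without dox for the 10 genes, 1 point per same-labelled pair of libraries, for NLS-N-VEGF cells (left) and N-VEGF cells (right), with 0 marked by a line. Heph is below 0 in all 3 pairs of NLS-N-VEGF cells and near 0 in N-VEGF cells, and Cp and Steap3 are below 0 in all 6 pairs.

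Slc40a1 (ENSMUSG00000025993, chromosome 1) encodes ferroportin, the iron exporter of the cell. Its level was 3.97, 2.64 and 2.93 CPM in uninduced and 3.80, 3.39 and 2.84 CPM in induced NLS-N-VEGF libraries. The N-VEGF libraries had 2.64, 2.65 and 2.62 CPM when uninduced and 2.81, 2.33 and 2.21 CPM when induced. The groups with and without dox overlapped in both populations. These values rest on 33 to 71 counts per library, and the 95% intervals of the dox fold reached from 0.798 to 1.38 in NLS-N-VEGF cells and from 0.690 to 1.24 in N-VEGF cells with the block. Between the induced populations, Slc40a1 was 0.45 higher on the log2 scale in that with NLS-N-VEGF (SE 0.22, edgeR adjusted p 0.9999), and all 3 NLS-N-VEGF libraries lay above the N-VEGF ones. This separation is also a description, without the share of all genes that separate.

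Uptake genes gave no call. Tfrc (ENSMUSG00000022797, chromosome 16), the transferrin receptor, stood at 271, 278 and 252 CPM in uninduced and 267, 308 and 243 CPM in induced NLS-N-VEGF libraries. For N-VEGF libraries the levels were 223, 235 and 282 CPM uninduced and 229, 261 and 237 CPM induced. The groups overlapped, and with the block the fold with dox was 1.02 in NLS-N-VEGF cells (95% interval 0.890 to 1.17) and 0.980 in N-VEGF cells (95% interval 0.854 to 1.13).

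Steap3 (ENSMUSG00000026389, chromosome 1), the endosomal ferrireductase, was lower with dox in 6 of 6 pairs but was not called. NLS-N-VEGF libraries gave 112, 116 and 116 CPM when uninduced and 105, 95.3 and 106 CPM when induced, and these groups did not overlap. N-VEGF libraries gave 173, 130 and 112 CPM when uninduced and 123, 115 and 102 CPM when induced, and these overlapped. For Steap3 too, the separation and the 6 of 6 pairs are a description only. The mean dox effect was -0.22 with and without the block (edgeR adjusted p 0.282 with it), and its fold had a 95% interval from 0.772 to 0.955. Without uninduced N-VEGF library 1 of suffix a it was -0.13, and -0.14 with the block (edgeR adjusted p 0.368). With the block and without the uninduced N-VEGF library of suffix b, Steap3 was called at -0.29 (edgeR adjusted p 0.0328). Slc11a2 (ENSMUSG00000023030, chromosome 15), the divalent metal transporter, varied little, between 51.3 and 61.7 CPM in the 12 libraries. It was higher with dox in 3 of 3 pairs of NLS-N-VEGF cells, by 0.03 to 0.14 on the log2 scale, and in 1 of 3 pairs of N-VEGF cells. As for Cp and Steap3, its groups in NLS-N-VEGF cells did not overlap, but here the induced ones were higher. They held 51.3 to 55.0 CPM uninduced and 55.4 to 57.8 CPM induced. For Slc11a2 too, the separation and the 3 of 3 pairs are a description only. With the block its fold with dox in NLS-N-VEGF cells was 1.07 (95% interval 0.956 to 1.19). Of the Slc11a2 exon bases 6.33% overlap an antisense gene, and the strand setting of the counting was not stated.

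The ferritin genes, which store iron, did not separate by dox. Fth1 (ENSMUSG00000024661, chromosome 19), the heavy chain, stood at 1286, 1311 and 1913 CPM in uninduced and 1306, 1118 and 1615 CPM in induced NLS-N-VEGF libraries. Fth1 reached 1730, 1184 and 1908 CPM in uninduced and 1234, 1301 and 1951 CPM in induced N-VEGF libraries. Ftl1 (ENSMUSG00000050708, chromosome 7), the light chain, stood at 177, 184 and 258 CPM in uninduced and 189, 186 and 231 CPM in induced NLS-N-VEGF libraries. Ftl1 reached 253, 192 and 258 CPM in uninduced and 174, 178 and 282 CPM in induced N-VEGF libraries. For both genes the groups overlapped, and the libraries of suffix b were the highest of each group.

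With the block, the fold of Fth1 with dox was 0.900 in NLS-N-VEGF cells (95% interval 0.773 to 1.05) and that of Ftl1 0.987 (95% interval 0.852 to 1.14). N-VEGF library 1 without dox stood apart from the other 7 libraries of suffix a. It had the highest Fth1, Ftl1, Steap3, Slc11a2 and Aco1 of suffix a, and the lowest Tfrc and Ireb2. Ferritin counts are uncertain, because reads can fall on near-identical copies. The annotated pseudogene rows held 0.569% as many counts as Ftl1 and its pseudogenes together, and 0.00553% for Fth1. Of the Ftl1 exon bases 26.5% overlap an antisense gene and 8.13% a gene on the same strand.

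Ireb2 and Aco1 encode the iron regulatory proteins, the sensors that bind the hairpins shown above. Ireb2 (ENSMUSG00000032293, chromosome 9) stood at 135, 125 and 125 CPM in uninduced and 137, 147 and 127 CPM in induced NLS-N-VEGF libraries. It reached 107, 128 and 125 CPM in uninduced and 126, 134 and 106 CPM in induced N-VEGF libraries. Aco1 (ENSMUSG00000028405, chromosome 4), which is also the cytosolic aconitase, stood at 69.7, 71.7 and 69.6 CPM in uninduced and 72.0, 73.4 and 71.7 CPM in induced NLS-N-VEGF libraries. It lay between 71.7 and 82.2 CPM in uninduced and between 70.0 and 76.2 CPM in induced N-VEGF libraries. Both sensors were higher with dox in 3 of 3 pairs of NLS-N-VEGF cells, Aco1 by 0.03 to 0.05 and Ireb2 by 0.02 to 0.23 on the log2 scale. There the Ireb2 groups overlapped. The Aco1 groups narrowly did not, at up to 71.67 CPM uninduced and from 71.69 CPM induced. The share of all genes tested that move or separate in this way is not given, so both are a description only. With the block the fold in NLS-N-VEGF cells was 1.06 for Ireb2 (95% interval 0.937 to 1.21) and 1.03 for Aco1 (95% interval 0.929 to 1.14).

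The populations were also set against each other. In the difference of dox effects, between the induced populations and between the uninduced ones, edgeR called 0 of the 9 genes tested each time, and DESeq2 and the replicate block also gave 0. Over all 13608 genes these comparisons called 0, 0 and 0 genes (0%) without the block, with 116, 160 and 82 at an unadjusted p under 0.05, and of the 9 genes 0, 1 and 0 had one. With the block the background was 0%, 0.0147% and 0%. The gene with the unadjusted p was Cp, 0.43 higher on the log2 scale in NLS-N-VEGF cells with dox (SE 0.17, edgeR adjusted p 0.9999), and 0.20 without the induced N-VEGF library of suffix b. As a description, Heph was at -0.75 with dox (SE 0.65) and at 0.07 without dox (SE 0.63) in NLS-N-VEGF cells relative to N-VEGF cells. With a library left out these values lay between -1.14 and -0.37 and between -0.32 and 0.49.

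The suffix of the library title went with larger differences than dox. Of the 13608 genes tested, 45.6% were called between suffix b and suffix a in a model with the group, 22.2% higher and 23.5% lower in suffix b. Of the 10 iron genes 4 were called, 2 higher and 2 lower, a share near that background, from which nothing is read about the set. Heph was the member with the largest change, at -1.84 on the log2 scale (SE 0.09, edgeR adjusted p 2.7e-09), a fold of 0.280 with a 95% interval from 0.245 to 0.321. Its level was 14.4 to 27.9 CPM with a median of 24.9 in the 8 libraries of suffix a and 4.62 to 7.75 CPM with a median of 6.61 in the 4 of suffix b. The suffixes did not overlap, and Heph was 3.19 to 4.52 times higher in suffix a within each of the 4 groups. Only 19 of the genes tested (0.140%) had a log2 fold change as low as that of Heph or lower.

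Both ferritins were higher in suffix b. The log2 fold change was 0.50 for Fth1 (SE 0.08, edgeR adjusted p 0.000173) and 0.43 for Ftl1 (SE 0.08, edgeR adjusted p 0.000273). Median levels were 1293 CPM in suffix a and 1911 CPM in suffix b for Fth1, and 185 and 258 CPM for Ftl1. N-VEGF library 1 without dox, of suffix a, reached into the range of suffix b for both genes. Cp was lower, at -0.28 (SE 0.09, edgeR adjusted p 0.0166), but its suffixes overlapped, with 63.0 to 94.0 CPM in suffix a and 36.4 to 83.5 CPM in suffix b. Without the N-VEGF library with dox of suffix b the Cp value was -0.13 (edgeR adjusted p 0.0924), and the call was lost.

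The remaining 6 genes did not pass between the suffixes. Their log2 fold changes were -0.19 for Slc40a1 (95% interval -0.51 to 0.13), -0.14 for Steap3 (-0.31 to 0.04), -0.10 for Ireb2 (-0.24 to 0.04) and -0.07 for Aco1 (-0.17 to 0.04). For Tfrc and Slc11a2, the receptor and the metal transporter of uptake, they were -0.02 (-0.18 to 0.13) and 0.01 (-0.10 to 0.13). Steap3 was called at -0.17 with a filter of 1 count in any library (edgeR adjusted p 0.0474), and Ireb2 at -0.15 without uninduced N-VEGF library 1 of suffix a (edgeR adjusted p 0.0162).

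**Figure D4:**
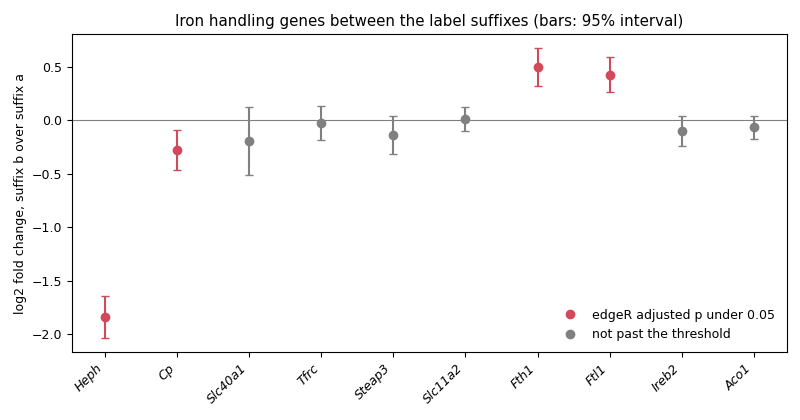
Log2 fold change of the 10 genes between suffix b and suffix a from the edgeR model with the group, with 95% intervals as bars and red points for an adjusted p under 0.05. Heph lies at -1.84, Cp at -0.28, Fth1 at 0.50 and Ftl1 at 0.43, and the bars of the other 6 genes cross 0.

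A wider list of 77 symbols of further iron, copper and heme genes was examined in the same fits, of which 57 were tested and 18 fell under the filter. The other 2 symbols matched no row: Hjv is another name of Hfe2, which is also listed, and Fur stood for the gene that the table names Furin, which was not examined. With dox in NLS-N-VEGF cells, with dox in N-VEGF cells, in the difference of these effects and between the populations with and without dox, 0 of the 57 were called by edgeR with or without the block or by DESeq2. Without the block 2, 1, 0, 1 and 0 of them had an unadjusted p under 0.05. With dox the median of the 57 log2 fold changes was 0.01 in NLS-N-VEGF and -0.01 in N-VEGF cells. Hephl1, the third multicopper ferroxidase gene of this family, had 1 count in the 12 libraries together.

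Between the suffixes 23 of the 57 genes were called, 14 higher and 9 lower in suffix b, again near the background of 45.6%. The largest fall among those of at least 1 CPM was that of Atp7a, the copper pump that loads copper onto secreted and membrane cuproenzymes such as Heph and Cp. Atp7a had 25.6 ± 1.43 CPM (SD, n = 8) in suffix a and 13.4 ± 2.53 CPM (SD, n = 4) in suffix b, which is -0.94 on the log2 scale (SE 0.10, edgeR adjusted p 2.2e-06). Smad4 and Bmpr1a, of the bone morphogenetic protein signal that drives hepcidin, had log2 fold changes of -0.38 and -0.34, and Cpox, an enzyme of heme synthesis, had -0.31. Abcg2, a transporter that can export heme, rose from 6.87 ± 0.648 CPM (SD, n = 8) to 11.8 ± 1.07 CPM (SD, n = 4), which is 0.78 on the log2 scale (SE 0.09, edgeR adjusted p 3.5e-06). Scara5, a receptor for ferritin, was higher by 0.59, Cisd1, an iron-sulfur protein of the outer mitochondrial membrane, by 0.38 and Ppox, a further enzyme of heme synthesis, by 0.37. By set, 2 of 7 tested uptake genes rose and 1 fell, 1 of 5 copper transport and chaperone genes rose and 2 fell, and 1 of 3 ferritin handling genes went each way. Among sensing and hepcidin genes 0 of 6 rose and 2 fell, among mitochondrial import and iron-sulfur genes 4 of 20 rose and 1 fell, and among heme genes 6 of 16 rose and 2 fell.

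The genes most like Heph over the 12 libraries, once levels were centred within each replicate label, were not among the iron genes. After levels on the log2(CPM + 1) scale were centred within each replicate label, Pearson's r with Heph was 0.947 for Afg3l2, 0.916 for Zfp869, 0.908 for Slc25a38, 0.908 for Cyb5a and 0.900 for Cxxc1, over 12 libraries and out of 12057 genes that averaged 1 CPM or more. Afg3l2 is a subunit of a mitochondrial protease, Slc25a38 a glycine carrier that feeds heme synthesis and Cyb5a cytochrome b5. The libraries of a label share what the label stands for, their depths differ, and the values are a description. The centred levels also hold the fall with dox for which Heph was chosen. Among the iron genes the same r was 0.482 for Steap3, 0.439 for Fth1, 0.178 for Ftl1, 0.139 for Aco1, -0.058 for Slc11a2, -0.076 for Cp, -0.318 for Tfrc, -0.541 for Ireb2 and -0.593 for Slc40a1. Without centring, r with Heph was -0.699 for Fth1 and -0.720 for Ftl1, genes that differed between the suffixes in the direction opposite to Heph. For the genes most like Heph after centring, the uncentred r was 0.761 for Afg3l2, 0.707 for Zfp869 and 0.464 for Cxxc1. It was -0.441 for Slc25a38 and -0.178 for Cyb5a, so these were not like Heph without centring.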

How the data were processed

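RNA of 12 libraries in 4 groups of 3 was sequenced by the authors from TruSeq libraries. Per the labels, reads were trimmed with Trim Galore and cutadapt 1.10, aligned with TopHat2 2.1.0 and Bowtie2 2.2.6 to GRCm38 and counted with HTSeq 0.6.1, and the notes also name DESeq2 1.18.1. The table the authors deposited holds unnormalized read counts by gene. The strand option was not given in the sources used here, so reads of antisense partners cannot be told apart. Of the rows 0 named no gene and all 12 value columns matched a labelled library. Total counts were 13549331 to 18982127, and 3 counts, the lowest level the depth could show, stood for 0.158 to 0.221 CPM. This floor covers counting error only.

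Genes were filtered with filterByExpr by group, scaled by TMM and tested with edgeR 4.0.16 in R 4.3.3 (quasi-likelihood F test, two-sided, 1 mean per group over 12 libraries, Benjamini-Hochberg over 13608 genes, threshold 0.05). The suffix comparison added the suffix to the group means. Since its fall in NLS-N-VEGF cells chose Heph, it was tested only for dox in N-VEGF cells and between the suffixes, and has values without a test in the comparisons by dox or population that use NLS-N-VEGF libraries. SEs and intervals derive from the F statistic. Where groups do not overlap, the share called over all genes is given. The share of all genes whose groups do not overlap, or whose pairs all move one way, is not given. The alternatives were DESeq2 1.42.0, RLE scaling, a filter of 1 count in any library, 10 counts in every library, a replicate block, suffix as a term, suffix a alone and each library left out. The edgeR fits with and without the replicate block, for dox in NLS-N-VEGF cells, and the suffix comparison were run on simulated data. DESeq2 and the other comparisons were not.

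Replicate label (number and suffix) entered as a block in the paired fit. The pairing comes from the labels. Deviations from the group means of same-labelled libraries correlated at 0.371 to 0.816 over 18 pairs (mean 0.574) and those of different labels at a mean of -0.242. Within suffix a, different-labelled libraries also correlated, at 0.158 to 0.651, so these values follow the suffix. They do not show that library 1 pairs with 1 and library 2 with 2. In the libraries of suffix a, deviations of library 1 from library 2 correlated between groups at a mean of 0.054. No 2 libraries of a group agreed within sampling noise (lowest chi-square 1.76 per degree of freedom over 12 pairs). Within suffix a this value was 26.6 between the uninduced N-VEGF libraries. It was 1.76 for uninduced NLS-N-VEGF, 3.08 for induced N-VEGF and 5.02 for induced NLS-N-VEGF libraries.

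The members and lists were chosen with earlier results of these data known. Named were the 10 members, up to 4 further iron genes called higher and 4 lower per comparison that averaged 1 CPM or more, and the 5 genes most like Heph after centring. Coordinates are 1-based, and 9 of 10 members had the same coordinates in GENCODE M21. Exon lengths are unions of exons, and for Fth1 those within the table's coordinates.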

Additional observations from a re-analysis of the deposited data

How the results depend on the processing

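The count of members called between the suffixes was 5 with a filter of 1 count in any library, 4 in the other alternatives and 3 to 5 with a library left out. It was 0 in each of the 5 comparisons of groups, except 1 (Cp) for dox in N-VEGF cells with a filter of 1 count in any library. For the mean dox effect the count was 0 in the reported fit without a block, with DESeq2, with RLE scaling and with 10 counts in every library, and 1 with the replicate block, with suffix as a term, with a filter of 1 count in any library and with suffix a alone. It ranged from 0 to 2 with a library left out. The replicate block changed no other call of a member.

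Signs turned for values whose intervals include 0 and for Heph between the uninduced populations, which was not tested. With suffix a alone, log2 fold changes turned to 0.047 for Ftl1 with dox in NLS-N-VEGF cells, 0.088 for Tfrc and 0.0017 for Slc11a2 with dox in N-VEGF cells, -0.028 for Tfrc, 0.11 for Fth1 and -0.024 for Ireb2 in the difference of dox effects, and 0.094 for Ftl1 between the induced populations. With a filter of 1 count in any library, Slc11a2 turned to -0.020 between the suffixes. The cause was not tested.

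Leaving out a library turned the sign of further values. With dox in NLS-N-VEGF cells the ranges were -0.050 to 0.27 for Slc40a1, -0.061 to 0.11 for Tfrc, -0.31 to 0.046 for Fth1 and -0.14 to 0.15 for Ftl1. With dox in N-VEGF cells they were -0.35 to 0.43 for Heph, -0.093 to 0.062 for Tfrc, -0.073 to 0.037 for Slc11a2, -0.34 to 0.014 for Fth1, -0.053 to 0.12 for Ireb2 and -0.099 to 0.023 for Aco1. In the difference they were -0.035 to 0.14 for Tfrc, -0.072 to 0.27 for Steap3, -0.20 to 0.19 for Fth1 and -0.024 to 0.15 for Ireb2. Between the induced populations they were -0.30 to 0.087 for Fth1, -0.18 to 0.20 for Ftl1 and -0.057 to 0.0028 for Aco1, and between the uninduced ones -0.32 to 0.49 for Heph and -0.31 to 0.029 for Fth1. Between the suffixes they were -0.14 to 0.046 for Tfrc and -0.020 to 0.032 for Slc11a2. Heph between the suffixes stayed between -1.91 and -1.74 and was called in each of these fits.

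The 3 libraries per group and the spread between suffixes limit the fit without a block, in which genes varied by 15.5% between libraries of a group against 7.86% with it. Slc40a1, at 33 to 71 counts, and Heph in suffix b, at 78 to 133, are limited by depth.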
